A study of Mus musculus with 18 samples.

Results

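De novo lipogenesis was described in adipocytes of mice through 10 genes named for their roles in the pathway, namely Acly, Me1, Acaca, Acacb, Fasn, Elovl5, Elovl6, Thrsp, Srebf1 and Mlxipl. They were found by symbol among 33440 genes, each matched a single gene identifier, and all 10 passed the filter on low counts in every comparison. RNA was sequenced in 18 libraries from 2 experiments that address which adipocyte genes respond to interferon regulatory factor 3 (IRF3). In the first, adipocytes were differentiated from the stromal vascular fraction (SVF) of inguinal white fat of IRF3-2D mice, which carry a Cre-dependent, constitutively active IRF3, and were transduced with AAV carrying GFP (WT, 3 libraries) or GFP and Cre (FI3OE, 3 libraries). In the second, RNA on tagged adipocyte ribosomes was pulled down by translating ribosome affinity purification (TRAP) from epididymal white fat (eWAT) of Ad-NuTRAP mice (WT, 6 libraries) and of FI3KO-Ad-NuTRAP mice, which lack IRF3 in adipocytes (6 libraries), after 8 weeks on a high-fat diet (HFD) at thermoneutrality. The labels give C57BL/6 for every library and no age, and per the methods the cultures came from young mice.

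The WT cells of the first experiment carried the unrecombined IRF3-2D allele and received virus as well, so FI3OE differed from WT by Cre in addition to active IRF3. Both groups had been differentiated with insulin, dexamethasone, IBMX and rosiglitazone and then kept in insulin and rosiglitazone, an agonist of PPARgamma. In the second experiment both the ribosome tag and the IRF3 deletion are driven by Cre from the adiponectin promoter, and every mouse was on HFD, so no library stands for a lean animal.

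In de novo lipogenesis, citrate exported from mitochondria is cleaved to acetyl-CoA, acetyl-CoA carboxylase makes malonyl-CoA, and fatty acid synthase joins these units into palmitate with reducing power from NADPH. Elongases lengthen the products. The transcription factors SREBP1, which responds to insulin and liver X receptors, and ChREBP, which responds to glucose, raise expression of these enzymes, and in white fat the pathway is known for its link to insulin sensitivity.

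The 10 genes lie on 5 mouse chromosomes (GRCm38, GENCODE M21 gene spans). Acly is at chr11:100476353-100528000, Acaca at chr11:84129672-84401651, Fasn at chr11:120805846-120824547 and Srebf1 at chr11:60199089-60222581. Acacb is at chr5:114146535-114250761 and Mlxipl at chr5:135089890-135138382. Me1 is at chr9:86581371-86695953, Elovl5 at chr9:77917364-77984519, Elovl6 at chr3:129532355-129638495 and Thrsp at chr7:97412938-97417730. Of the genes that overlap them, Rai1 on the opposite strand of Srebf1 was the one with a sizeable count, up to 7.24% of the Srebf1 reads. The counting is not stated to use strand, so reads in the shared 109 exonic bases cannot be told apart.

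Promoter sequence is shown to describe the 10 genes, and its part in their changes was not tested. RefSeq windows of GRCm38.p6, 300 bases long with 250 before a start and 50 after it, were found for all 10 genes, 14 windows in all. The pentamer CCAAT, the core of the NF-Y site, lay on either strand in 9 of the 14 windows and in 8 of the 10 genes, against 37.4% of 32817 windows of all genes. The E-box CACGTG, the core that ChREBP and SREBP1 bind, lay in windows of Elovl5 and Mlxipl, against 7.15% of all windows. Matches on both strands were counted, and in Fasn a pair on opposite strands shares bases. Longer motifs were searched on both strands in 1 fixed spelling each. The sterol response element (0.0914% of all windows), its E-box form (0.177%), the paired E-boxes of the carbohydrate response element (0%), the interferon response core (3.43%) and a direct repeat for the liver X receptor (0.0152%) lay in 0 of the 14 windows. In Mlxipl both matches lie at the start at 135089890, whose transcript model had at most 4.26 estimated reads in any library, and in Me1 the match lies at the downstream start of 2, at 86687277. In Acly the match lies after the start, at position 38. The full 100 bases before the Fasn start (minus strand, chr11:120824548-120824647) are printed first. They are followed by single matches with the bases around them in Acacb (plus strand, chr5:114165421-114165445), Srebf1 (minus strand, at its downstream start, chr11:60210487-60210511) and Elovl5 (plus strand, chr9:77917284-77917308 and, for the E-box, chr9:77917194-77917219). Capitals mark CCAAT, its reverse complement ATTGG, or the E-box.
Fasn: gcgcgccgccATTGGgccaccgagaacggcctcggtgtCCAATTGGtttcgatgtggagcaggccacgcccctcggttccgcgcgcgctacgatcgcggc
Acacb: acaagggaccCCAATagccttgccc
Srebf1: gcggctgctgATTGGccatgtgcgc
Elovl5: tcgccccaggATTGGttccaaggcc
Elovl5, E-box: tgccccgagaCACGTGaaccacagga
The RefSeq windows of Acaca and Elovl6 held neither set of letters, and that of Thrsp lies partly inside the GENCODE exon and is not printed. The Acaca window (chr11:84195338-84195437 before its start) lies inside the GENCODE span of the gene, which begins at 84129672. Sequence before that GENCODE start was not searched. A match describes the sequence only.

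Libraries held 21541334 to 40490283 reads assigned to transcripts, and the 10 genes took 0.807% to 1.67% of them. Irf3 was 91.4 to 102 CPM (counts scaled to a common library size) in FI3OE and 56.7 to 57.8 in WT SVF-derived adipocytes, with a log2 fold change of 0.73 (SE 0.05, edgeR adjusted p = 3.302e-07). In TRAP it was 12.5 to 19.95 CPM in FI3KO and 16.4 to 22.8 in WT, which overlap, with a log2 fold change of -0.35 (SE 0.11, edgeR adjusted p = 0.01977). In TPM, which is scaled for transcript length, it went the other way, at 55.1 to 93.5 in the libraries labelled FI3KO and 37.8 to 47.3 in WT, without overlap. By transcript model, one protein-coding model (start at 44997949) had 0 estimated reads in all 6 FI3KO libraries and 164 to 388 in WT, while a short model of 369 bases (start at 45000748) had 28.2 to 68.9 TPM in FI3KO and at most 2.66 in WT. Counts and TPM of the whole gene thus differ in direction, and the cause was not tested. Up to 30.6% as many reads as Irf3 itself were assigned to Bcl2l12, which overlaps it on the opposite strand. The FI3KO TRAP libraries fell into alike pairs, replicates 1 with 2, 3 with 4 and 5 with 6, for which a chi-square of the counts per gene was 34.9, 17.6 and 16.9, against 56.5 to 268 between other FI3KO pairs. Among WT TRAP libraries replicates 1 and 2 were the most alike at 2.54, followed by replicates 4 and 6 at 8.41. These values are above sampling noise. The labels call the libraries biological replicates, and each was kept as 1, but whether alike libraries came from separate animals or from repeat libraries of 1 animal or pool cannot be told from the labels. The p-values in TRAP, those of replicates 1 and 2 above all, rest on their being separate. Values with alike libraries summed, an alternative chosen after seeing the data, are given for all replicates and for replicates 3 to 6. That alternative summed the FI3KO pairs and WT replicates 1 and 2, and kept WT replicates 4 and 6 apart.

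The cell type labels were set against marker genes. In TRAP, 7 adipocyte markers summed to 20816 to 29414 CPM, while 4 fibroblast markers summed to 233 to 1545 CPM, 9 macrophage markers to 13.0 to 89.8 CPM, 3 endothelial markers to 13.5 to 62.2 CPM and 4 mesothelial markers to 2.01 to 18.9 CPM. In the SVF cultures the adipocyte markers summed to 5162 to 5630 CPM, beside 1905 to 2139 CPM of the macrophage markers and 7042 to 7630 CPM of the fibroblast markers. The endothelial markers summed to 8.18 to 11.8 CPM there and the mesothelial markers to 7.51 to 14.8 CPM. Of 2 markers of brown fat cells, Ucp1 was at or below 0.199 CPM and Cidea at or below 1.06 CPM in every library. Cidea was called lower in FI3OE than in WT cultures (mean 0.0447 against 0.802 CPM, log2 fold change -4.01, edgeR adjusted p = 8.44e-05). That call rests on few reads, at most 2 in any FI3OE library and at most 27 in any WT culture. In bulk RNA, fewer cells of a type and less RNA per cell cannot be told apart.

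Whether active IRF3 in culture changes lipogenic transcripts was addressed by FI3OE against WT SVF-derived adipocytes. Of the 10 genes, 6 were higher in FI3OE (Acly, Me1, Fasn, Elovl5, Elovl6 and Thrsp), 3 were lower (Acacb, Srebf1 and Mlxipl), and Acaca did not pass the test, at an edgeR adjusted p of at most 0.05. Over all 16105 genes tested, 20.2% were called higher and 16.8% lower. The enzymes called higher rose by 1.21- to 1.41-fold, and 0 of the 10 genes reached 2-fold, a size that 1.99% of all genes passed upward and 1.63% downward. The median log2 fold change was 0.30 over the 10 genes and -0.00 over all genes. The fit of all 18 libraries together, which takes its spread from the TRAP libraries too, called 2 higher (Elovl5 and Thrsp) and 1 lower (Mlxipl).

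Acly, ATP-citrate lyase, which makes cytosolic acetyl-CoA, was 965, 1113 and 954 CPM in the FI3OE libraries. It was 751, 667 and 724 CPM in WT. Every FI3OE library lay above every WT library, with a log2 fold change of 0.50 (SE 0.06, edgeR adjusted p = 5.88e-05). Me1, the cytosolic malic enzyme that yields NADPH, was 896, 985 and 917 CPM in FI3OE and 755, 714 and 743 CPM in WT. These groups did not overlap either, and the log2 fold change was 0.34 (SE 0.04, edgeR adjusted p = 6.11e-05).

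The 2 acetyl-CoA carboxylases did not follow Acly. Acaca encodes the cytosolic ACC1, whose malonyl-CoA feeds fatty acid synthesis. It was 1056, 1091 and 1031 CPM in FI3OE and 1095, 985 and 991 CPM in WT, groups that overlapped. Its log2 fold change was 0.05 with a 95% interval from -0.04 to 0.14 (edgeR adjusted p = 0.415). Acacb encodes ACC2 at the mitochondrial surface, whose malonyl-CoA restrains fatty acid import into mitochondria. It was 149, 161 and 162 CPM in FI3OE and 211, 172 and 176 CPM in WT. All FI3OE libraries were below WT, with a log2 fold change of -0.24 (SE 0.07, edgeR adjusted p = 0.0172). That call was lost without FI3OE replicate 1, whose removal left -0.20 (edgeR adjusted p = 0.0642), with robust dispersion (0.0672) and in the fit of all 18 libraries (-0.24, edgeR adjusted p = 0.722). Without WT replicate 1, the highest library, it was -0.14 and the call was kept, and an offset for transcript length gave -0.44.

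Fasn, fatty acid synthase, was 6757, 7190 and 7041 CPM in FI3OE and 6156, 5412 and 5738 CPM in WT. The groups did not overlap, and the log2 fold change was 0.28 (SE 0.04, edgeR adjusted p = 0.000361). Fasn alone made up 59.9% to 62.9% of the summed CPM of the 10 genes in these cultures. Elovl5, an elongase of polyunsaturated fatty acids, was 125, 138 and 123 CPM in FI3OE against 92.7, 99.9 and 97.3 CPM in WT. It rose by 0.41 on the log2 scale (SE 0.05, edgeR adjusted p = 5.36e-05). Elovl6, which extends palmitate to stearate, was 64.7, 62.4 and 59.3 CPM in FI3OE against 50.9, 48.8 and 49.0 CPM in WT. It rose by 0.32 (SE 0.04, edgeR adjusted p = 0.000159), and neither elongase overlapped between the groups.

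The regulators split. Thrsp (Spot 14), a lipogenic factor induced by thyroid hormone and carbohydrate, was 154, 160 and 158 CPM in FI3OE and 135, 96.9 and 111 CPM in WT. The WT libraries were the more spread, all FI3OE libraries lay above them, and the log2 fold change was 0.46 (SE 0.09, edgeR adjusted p = 0.00182). With robust dispersion the Thrsp call was lost (edgeR adjusted p = 0.0585). Srebf1, which encodes SREBP1, was 679, 741 and 713 CPM in FI3OE against 797, 782 and 779 CPM in WT. It fell by 0.15 on the log2 scale (SE 0.04, edgeR adjusted p = 0.0106). Mlxipl, which encodes ChREBP, was 44.5, 41.1 and 41.8 CPM in FI3OE and 65.5, 51.8 and 48.0 CPM in WT. WT replicate 1 was the highest and no FI3OE library reached a WT library, with a log2 fold change of -0.38 (SE 0.09, edgeR adjusted p = 0.0078). Without WT replicate 1 it was -0.23 and the call was kept. With an offset for transcript length the Mlxipl call was lost (log2 fold change -0.34, edgeR adjusted p = 0.0812), as it was with robust dispersion (0.0794).

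Across the 10 genes, 6 were without overlap upward and 3 downward, while 25.7% and 23.8% of all genes were. The summed adipocyte markers did not overlap either, at 5391 to 5630 CPM in FI3OE and 5162 to 5274 CPM in WT. The macrophage markers were at 1905 to 1937 CPM against 2007 to 2139 CPM, and the fibroblast markers at 7042 to 7252 CPM against 7304 to 7630 CPM. The sums hide opposite changes. Of the adipocyte markers, Adipoq (log2 fold change 0.42) and Plin1 (0.21) rose, Lipe (-0.19), Pnpla2 (-0.20) and Lep (-0.24) fell, and Fabp4 and Cidec did not pass. Of the macrophage markers, Mrc1 fell from a mean of 433 to 237 CPM (log2 fold change -0.87, edgeR adjusted p = 9.21e-08) and Csf1r from 161 to 118 CPM (-0.45), while C1qa rose from 108 to 130 CPM (0.26, edgeR adjusted p = 0.00337) and the other 6 did not pass. Of the fibroblast markers, Cd34 (0.72) and Dpt (0.26) rose, Col1a1 fell (-0.08) and Pdgfra did not pass. Their part in the lipogenic result was not tested.

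**Figure D1:**
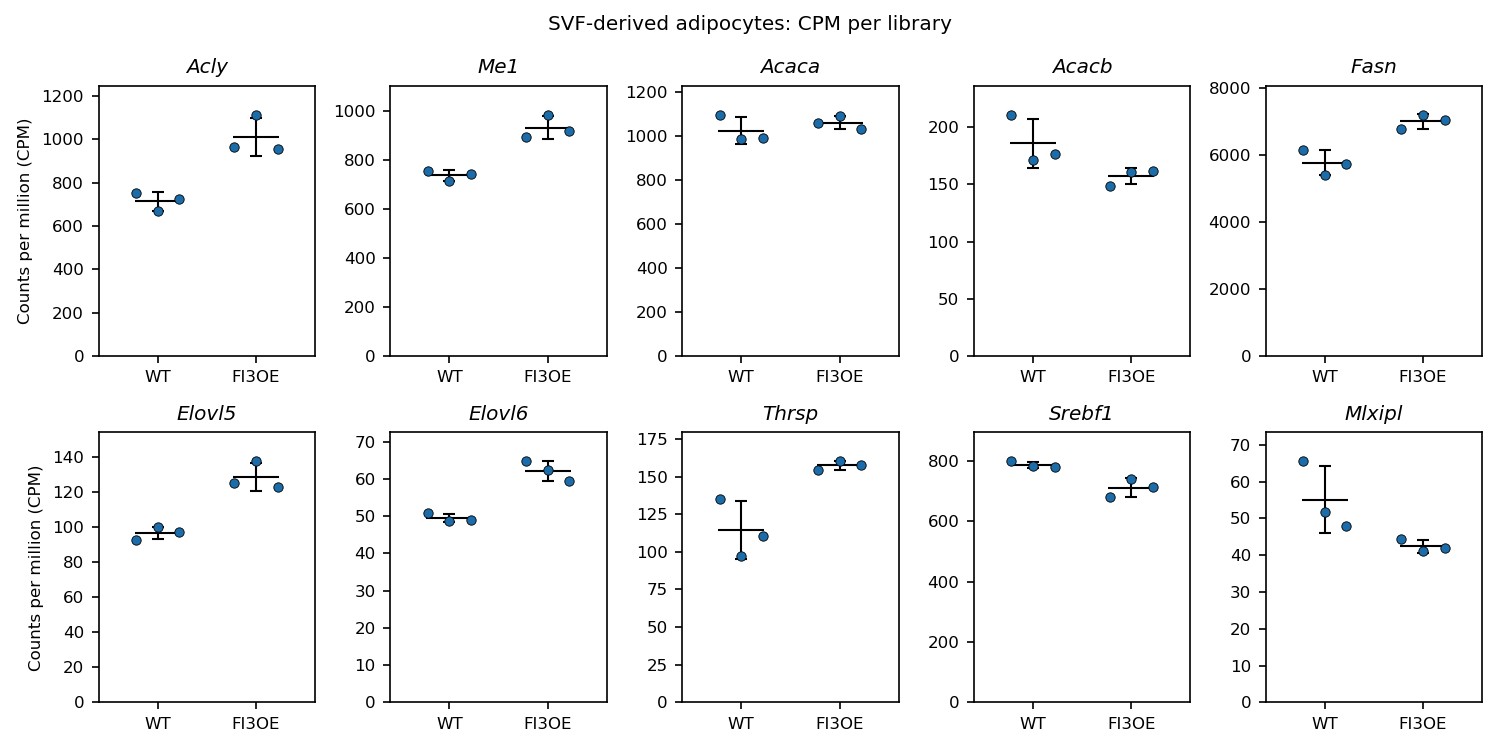
CPM (linear axis from 0) of the 10 lipogenic genes in the WT and FI3OE SVF-derived adipocyte libraries; each point is 1 library, and the bar and whiskers are the mean and SD of 3 libraries. Acly, Me1, Fasn, Elovl5, Elovl6 and Thrsp were higher in every FI3OE library, Acacb, Srebf1 and Mlxipl lower, and Acaca overlapped.

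The other genes of the pathway were followed in a list of 41, of which 39 were tested in the SVF cultures, with 20 called higher (51.3%) and 10 lower (25.6%), against 20.2% and 16.8% of all genes, and a median log2 fold change of 0.11. The group for substrate and NADPH supply had 7 of 8 genes higher and 0 lower, with a median of 0.44. The largest rises of the list were in Hsd17b12, a reductase of the elongation cycle, at 0.66, Arrdc4, a ChREBP target, at 0.64, and Taldo1 of the pentose phosphate pathway at 0.59 (log2). The largest falls were in the stearoyl-CoA desaturases Scd3 (-3.58) and Scd1 (-0.91), and in Prkaa2, the catalytic alpha 2 subunit of the kinase AMPK that inhibits ACC, at -0.53. The Scd genes are close paralogs, so the estimated counts can be split between them with error. In the group for elongation and desaturation 5 were higher and 4 lower of 13 tested, and in that for control of SREBP1 3 were higher and 2 lower of 7. Of 4 tested partners and targets of ChREBP 2 were higher and 1 lower, and of 7 genes for control of ACC 3 were higher and 3 lower.

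Whether loss of IRF3 changes lipogenic transcripts on adipocyte ribosomes in obese mice was addressed by FI3KO against WT TRAP. With 13624 genes tested, 6 of the 10 genes were higher in FI3KO (Acaca, Acacb, Thrsp, Elovl6, Me1 and Srebf1), 1 was lower (Mlxipl) and Acly, Fasn and Elovl5 did not pass the test. Over all genes 19.1% were called higher and 18.3% lower by edgeR. The median log2 fold change was 0.34 over the 10 genes and 0.02 over all genes. With alike libraries summed, 3 were called higher (Acaca, Acacb and Thrsp) and 1 lower (Mlxipl), and the calls of Elovl6, Me1 and Srebf1 were lost at edgeR adjusted p = 0.0512, 0.0789 and 0.0963.

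The 3 genes whose libraries did not overlap, all of them higher in FI3KO, were Acaca, Acacb and Thrsp, while 7.44% of all genes were without overlap upward and 8.54% downward. Acacb was 206 to 414 CPM in FI3KO (median 278) and 81.5 to 154 CPM in WT (median 91.9). In WT, replicates 1 and 2 were at 154 and 153 CPM and the other 4 at 81.5 to 94.8 CPM. FI3KO replicates 5 and 6 were the highest, at 390.5 and 414 CPM. The difference was 2.75-fold, a log2 fold change of 1.46 (SE 0.21, edgeR adjusted p = 0.000381), and Acacb was the 1 gene of the 10 to pass 2-fold, as 1.74% of all genes did upward and 4.87% downward.

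Acaca was 834 to 1402 CPM in FI3KO (median 880) and 460 to 584 CPM in WT (median 544). FI3KO replicates 3 and 4 stood highest, at 1402 and 1355 CPM, while the WT libraries were close together. The log2 fold change was 0.95 (SE 0.14, edgeR adjusted p = 0.000383). Thrsp was 586 to 887 CPM in FI3KO (median 773) and 415 to 491 CPM in WT (median 457), with FI3KO replicates 5 and 6 nearest to WT. It rose by 0.71 on the log2 scale (SE 0.10, edgeR adjusted p = 0.000356). The calls of Acaca, Acacb and Thrsp held in all 25 alternatives run, whose highest edgeR adjusted p was 0.00673.

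Fasn was 4634 to 11723 CPM in FI3KO (median 8037) and 5305 to 8225 CPM in WT (median 6505). FI3KO replicates 3 and 4 were above every WT library and replicates 5 and 6 were below every WT library. The log2 fold change was 0.29, with a 95% interval from -0.17 to 0.76 (edgeR adjusted p = 0.348). Acly was 309 to 694 CPM in FI3KO (median 494) and 293 to 459 CPM in WT (median 421). FI3KO replicates 3 and 4 were again the highest, at 694 and 682 CPM, and 5 and 6 lay within the WT range. Its log2 fold change was 0.37, with an interval from -0.02 to 0.76 (edgeR adjusted p = 0.160).

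Me1 was 766 to 1145 CPM in FI3KO (median 996) and 721 to 810 CPM in WT (median 787). FI3KO replicates 5 and 6 lay inside the WT range and the other 4 above it. The log2 fold change was 0.32 (SE 0.10, edgeR adjusted p = 0.0253), and the call was lost without FI3KO replicate 1 (0.0544) or replicate 2 (0.0548). Elovl6 was 40.8 to 69.6 CPM in FI3KO (median 59.8) and 42.7 to 49.4 CPM in WT (median 43.2). FI3KO replicate 6 was below every WT library. The log2 fold change was 0.38 (SE 0.12, edgeR adjusted p = 0.0238), and leaving out FI3KO replicate 3 or 4 or WT replicate 3 gave 0.0503, 0.0517 and 0.0526. Elovl5 was 72.1 to 89.1 CPM in FI3KO (median 76.6) and 77.4 to 89.7 CPM in WT (median 85.5). FI3KO replicates 1, 2 and 6 were below every WT library. Its log2 fold change was -0.11, with an interval from -0.23 to 0.01 (edgeR adjusted p = 0.159). Without FI3KO replicate 5, the highest of its group, it passed at -0.16 (edgeR adjusted p = 0.0426).

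Of the 2 transcription factors, Srebf1 was 477 to 571 CPM in FI3KO (median 512) and 404 to 485 CPM in WT (median 454). The groups overlapped through FI3KO replicates 1 and 2, which lay inside the WT range. The log2 fold change was 0.19 (SE 0.06, edgeR adjusted p = 0.0320). This was the least stable call, since it was lost in 12 of 25 alternatives, among them those without FI3KO replicate 3, 4, 5 or 6 or WT replicate 3, 5 or 6, which gave edgeR adjusted p from 0.0536 to 0.0878. Mlxipl was 20.3 to 24.4 CPM in FI3KO (median 22.1) and 22.7 to 29.9 CPM in WT (median 26.7). It fell by 0.25 on the log2 scale (SE 0.07, edgeR adjusted p = 0.0201), and WT replicates 1 and 2 were within the FI3KO range.

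**Figure D2:**
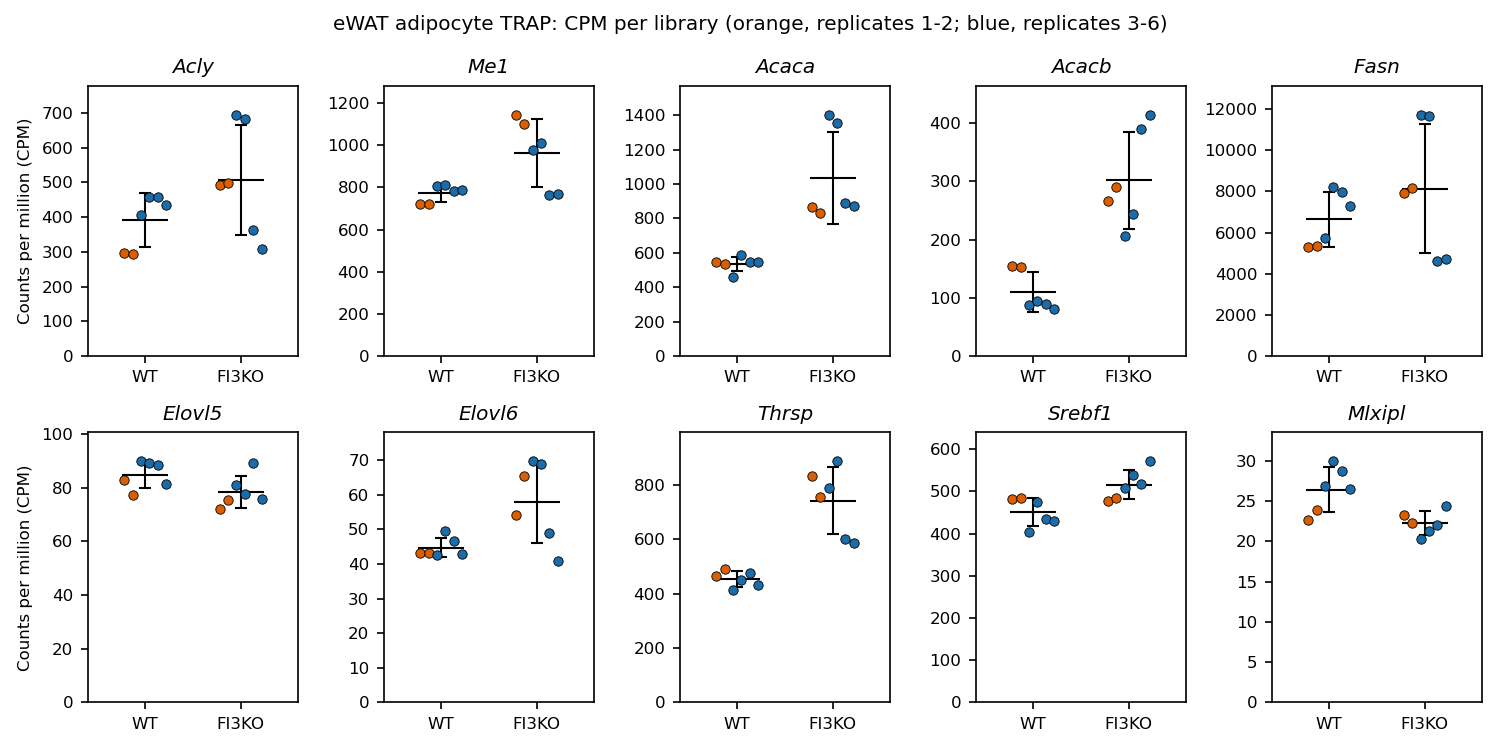
CPM (linear axis from 0) of the 10 lipogenic genes in the WT and FI3KO TRAP libraries, each point 1 library, with the mean and SD of 6; orange points are replicates 1-2 and blue points replicates 3-6. Acaca, Acacb and Thrsp did not overlap between genotypes, and Fasn in FI3KO ran from 4634 to 11723 CPM.

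The alike FI3KO libraries differed from one another in which enzymes were high, and the WT libraries differed between the sets as well. Relative to the mean of all 6 WT libraries, Fasn was 1.21-fold in FI3KO replicates 1 and 2, 1.76-fold in 3 and 4 and 0.705-fold in 5 and 6. Relative to the WT libraries of the same set (replicates 1-2 or 3-6) it was 1.51-, 1.604- and 0.642-fold. Acly was 1.26-, 1.76- and 0.858-fold against all WT libraries and 1.67-, 1.56- and 0.764-fold against those of the same set, so the order of its first pairs depends on the reference. Elovl6 was 1.34-, 1.55- and 1.01-fold against all WT libraries. Acacb was 2.53-fold in replicates 1 and 2, 2.05-fold in 3 and 4 and 3.66-fold in 5 and 6, but 1.81-, 2.55- and 4.57-fold against the WT libraries of the same set. It stood highest in replicates 5 and 6 on either reference. Acaca was 1.59-, 2.57- and 1.64-fold, and Thrsp 1.75-, 1.85- and 1.31-fold, and both were above WT in each pair on either reference. Me1 was 1.45-, 1.29- and 0.995-fold. Elovl5 (0.871-, 0.934- and 0.972-fold), Srebf1 (1.06-, 1.16- and 1.20-fold) and Mlxipl (0.861-, 0.788- and 0.879-fold) had narrower ranges over the pairs. Against the WT libraries of the same set, Srebf1 was 0.993-, 1.20- and 1.25-fold and Mlxipl 0.978-, 0.743- and 0.829-fold. These ratios are a description of 6 libraries, without a test.

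**Figure D3:**
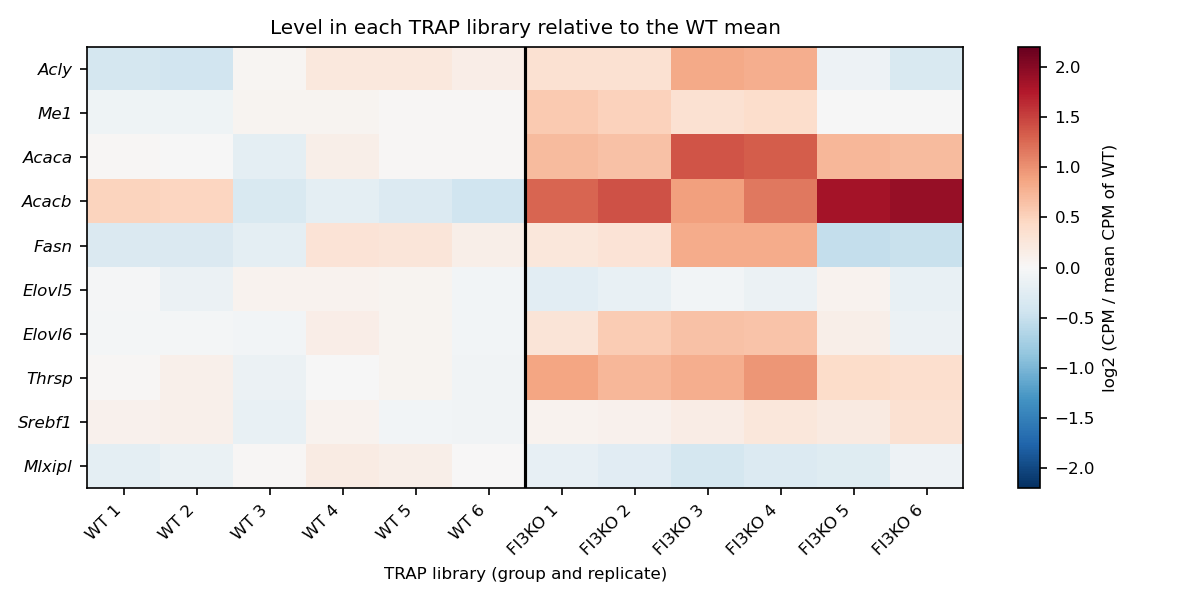
Colour gives log2 of the CPM in each TRAP library over the mean CPM of the 6 WT libraries, with genes in rows and libraries in columns (red, higher; blue, lower). The FI3KO columns run in pairs, and Fasn is red in FI3KO 3 and 4 and blue in FI3KO 5 and 6, while Acacb is red in all 6.

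Markers of other cells moved with genotype in TRAP. The 9 macrophage markers summed to 13.0 to 44.0 CPM in FI3KO and 37.1 to 89.8 CPM in WT, and the 4 fibroblast markers to 233 to 654 CPM against 600 to 1545 CPM. Of the 8 macrophage markers tested 7 fell, and Csf1r (log2 fold change -1.03, edgeR adjusted p = 0.0651) did not pass. The fibroblast sum was mostly Col1a1, which fell from a mean of 985 to 278 CPM (-1.82, edgeR adjusted p = 0.0043), while Dpt rose from 74.8 to 115 CPM (0.62, edgeR adjusted p = 0.0104) and Pdgfra (-0.13) and Cd34 (-0.07) did not pass. In replicates 1 and 2 the macrophage sums were 34.8 to 44.0 CPM in FI3KO and 37.1 to 37.5 CPM in WT, and the fibroblast sums 570 to 654 against 600 to 608 CPM. Within the latter, Pdgfra was higher (1.06, edgeR adjusted p = 0.0499), Cd34 was at 0.67 and Dpt at 0.45, and Col1a1 was at -0.08, which did not pass. The endothelial sums of replicates 1 and 2 were 34.6 to 62.2 CPM in FI3KO and 20.5 to 21.8 CPM in WT, with Kdr called higher (1.35, edgeR adjusted p = 0.0467) and Pecam1 (1.28) and Cdh5 (0.94) not passing. The 7 adipocyte markers summed to 20816 to 24757 CPM in FI3KO and 25085 to 29414 CPM in WT. Among them Lep, leptin, fell from a mean of 9381 to 3029 CPM (log2 fold change -1.63, edgeR adjusted p = 0.0001004), while Pnpla2 (0.63), Fabp4 (0.30) and Plin1 (0.26) rose, with edgeR adjusted p from 0.00389 to 0.0441. Lep was also called lower in replicates 1 and 2 alone (-0.85, edgeR adjusted p = 0.0165). Adipoq (0.42), Lipe (0.15) and Cidec (-0.16) did not pass over all replicates, but Adipoq was called higher in replicates 3 to 6 (0.90, edgeR adjusted p = 0.00016) and was at -0.37 in replicates 1 and 2 (edgeR adjusted p = 0.0968), and Lipe was called higher in replicates 3 to 6 (0.23). Their part in the lipogenic result was not tested.

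In replicates 1 and 2 alone, with 14040 genes tested, 6 of the 10 genes were higher in FI3KO and 0 were lower by edgeR, against 1.58% and 1.98% of all genes. These were Acacb (log2 fold change 0.86), Acly (0.75), Thrsp (0.74), Acaca (0.66), Me1 (0.65) and Fasn (0.60), with edgeR adjusted p from 0.00895 to 0.0169. Fasn was at 7918 and 8157 CPM in FI3KO and 5305 and 5359 CPM in WT. Over the 10 genes the CV of the 2 libraries was 0.0593% to 4.79% in WT and 0.744% to 13.4% in FI3KO, the widest in Elovl6 at 54.1 and 65.5 CPM. Elovl6 was at 0.48 (edgeR adjusted p = 0.0654). Srebf1 (-0.00), Mlxipl (-0.03) and Elovl5 (-0.11) did not pass. Acaca was at 0.65 without WT replicate 2, and Me1 at 0.64 without WT replicate 1 or 2. Elovl6 was at 0.59 without FI3KO replicate 1 and 0.31 without replicate 2. Each of these fits leaves 1 library in a group, which is assumed to vary like the other group. Whether a call holds cannot be told from them. Without overlap were 7 genes upward and 1 downward, against 32.5% and 31.3% of all genes, and 0 passed 2-fold with a call, against 0.833% upward and 0.527% downward. The median log2 fold change was 0.62 over the 10 genes and 0.03 over all genes.

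In replicates 3 to 6, with 13692 genes tested, 4 of the 10 were higher and 1 lower, against 25.7% and 24.8% of all genes. The same 5 calls were made with alike libraries summed, at edgeR adjusted p of at most 0.0188. Only FI3KO libraries were summed there, and the WT libraries were kept apart. Acacb was 206 to 414 CPM in FI3KO and 81.5 to 94.8 CPM in WT, a log2 fold change of 1.84 (SE 0.21, edgeR adjusted p = 5.68e-05). Acaca rose by 1.08 (SE 0.16), Thrsp by 0.69 (SE 0.13) and Srebf1 by 0.30 (SE 0.07). Mlxipl fell by 0.34 on the log2 scale (SE 0.07), with edgeR adjusted p from 0.000353 to 0.00399 for these 4. Acaca and Acacb passed 2-fold, as 4.05% of all genes did upward and 9.6% downward, but Acaca was below 2-fold without FI3KO replicate 3 or 4. Fasn was at 0.17, with an interval from -0.43 to 0.77 (edgeR adjusted p = 0.677), and turned to -0.06 and -0.05 without FI3KO replicate 3 and 4. Elovl6 was at 0.33 (edgeR adjusted p = 0.0993) and passed at 0.47 without FI3KO replicate 6 (edgeR adjusted p = 0.0112). Acly was at 0.22, Me1 at 0.15 and Elovl5 at -0.11, and none of them passed. The 4 genes called higher and the 1 called lower were also those without overlap, against 23.7% and 23.3% of all genes. In this set all 9 macrophage markers were called lower in FI3KO (-2.96 to -2.08, summed level 13.0 to 16.4 CPM against 67.6 to 89.8 CPM). The fibroblast markers Col1a1 (-2.78) and Pdgfra (-0.97), the mesothelial Krt19 (-1.73) and Lep (-1.99) were also lower. Called higher were the fibroblast marker Dpt (0.73) and the adipocyte markers Adipoq (0.90), Pnpla2 (0.79), Plin1 (0.40), Fabp4 (0.31) and Lipe (0.23). Their part in the lipogenic result was not tested.

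The difference between the genotype effects of the 2 sets was tested with an interaction term over 14978 genes. It was called for Acacb, lower in replicates 1 and 2 by 1.01 on the log2 scale (log2 difference -1.01, SE 0.32, edgeR adjusted p = 0.0383), for Srebf1 (-0.34, SE 0.10, edgeR adjusted p = 0.0303) and for Me1, higher in replicates 1 and 2 (0.46, SE 0.15, edgeR adjusted p = 0.0370). This is 1 of 10 genes higher and 2 lower, against 11.9% and 12.9% of all genes. With a size of at least 1 on the log2 scale it is Acacb alone, against 7.98% of all genes upward and 2.98% downward. The calls were fragile, since that of Acacb was lost in 10 of 16 alternatives, that of Me1 in 10 and that of Srebf1 in 5, with edgeR adjusted p up to 0.105, 0.134 and 0.0969. For Fasn the difference was 0.39, with an interval from -0.54 to 1.33 (edgeR adjusted p = 0.572), and for Thrsp 0.01, from -0.38 to 0.39. The same term was called for all 9 macrophage markers (1.49 to 3.71), Col1a1 (2.66) and Lep (1.09). It was also called for Pdgfra (1.98), Cd34 (1.18), Pecam1 (1.36) and Krt19 (3.69). In the other direction it was called for Adipoq (-1.31, edgeR adjusted p = 0.000921) and Plin1 (-0.48). The part of these markers was not tested.

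**Figure D4:**
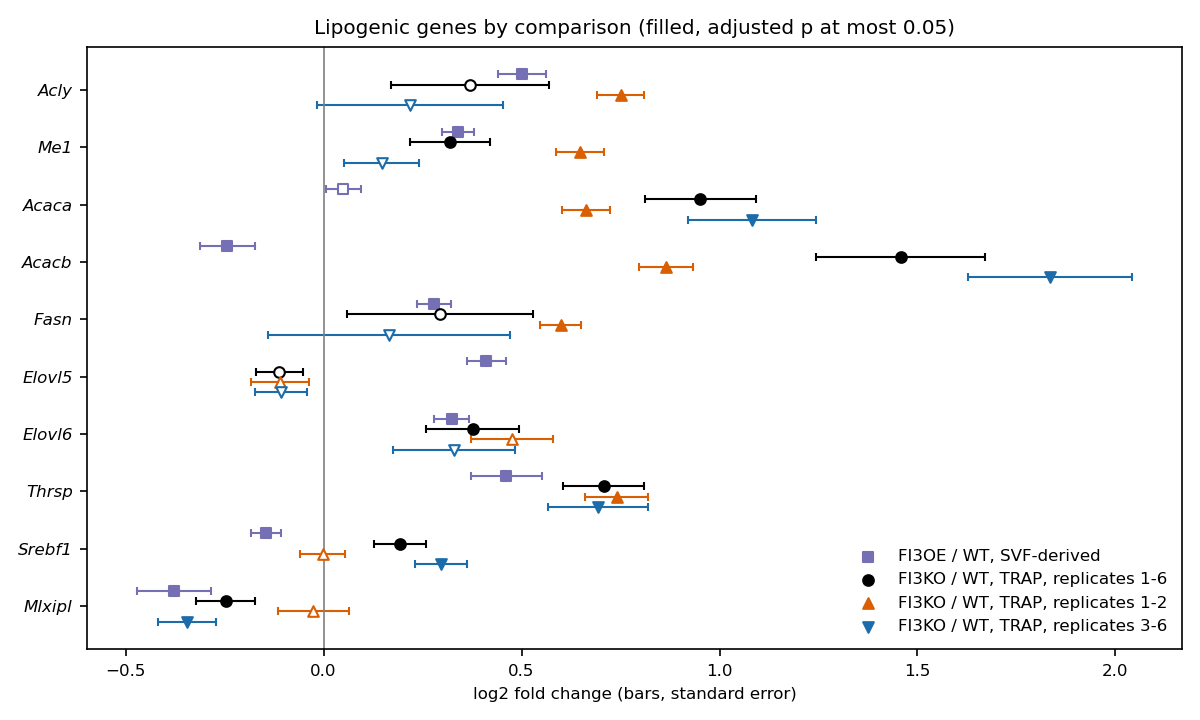
Log2 fold change with its standard error for the 10 lipogenic genes in FI3OE over WT SVF-derived adipocytes (squares) and in FI3KO over WT TRAP with all replicates (circles), replicates 1-2 (up triangles) and replicates 3-6 (down triangles); filled symbols had an edgeR adjusted p of at most 0.05. Acacb ran from -0.24 in FI3OE to 1.84 in FI3KO replicates 3-6, and Acly, Me1, Acaca, Fasn, Elovl6 and Thrsp were above 0 in all 4 comparisons. The TRAP comparisons share libraries, and open symbols did not pass the test.

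In TRAP, 37 of the 41 other genes of the pathway were tested, and 10 (27.0%) were higher and 8 (21.6%) lower in FI3KO, near the 19.1% and 18.3% of all genes, with a median log2 fold change of -0.04. The largest rises were in Fads1, the delta-5 desaturase (1.20), Scd1 (0.77) and Insig2, which retains SREBP in the endoplasmic reticulum (0.62). The largest falls were in Arrdc4 (-0.70), the elongase Elovl1 (-0.55) and Fads3 (-0.53). The AMPK subunits Prkag2 (0.61) and Prkaa1 (0.46) were the 2 higher of 7 genes for control of ACC, with 0 lower. In the supply of substrate and NADPH 2 of 8 were higher and 2 lower, in elongation and desaturation 2 higher and 3 lower of 11, in control of SREBP1 2 higher and 1 lower of 7, and among partners and targets of ChREBP 2 higher and 2 lower of 4.

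In replicates 1 and 2, 6 of the 38 other genes tested were higher (15.8%) and 0 lower, against 1.58% and 1.98% of all genes, with the largest rises in Fads1 (0.86), Acss2, which makes acetyl-CoA from acetate (0.84), and Scd2 (0.64). In replicates 3 to 6, 11 of 37 were higher (29.7%) and 9 lower (24.3%), against 25.7% and 24.8% of all genes. The largest rises there were in Fads1 (2.64-fold), Prkag2 (0.95 on the log2 scale) and Scd1 (0.91), and the largest falls in Scd2 (-1.62), Fads2 (-1.35) and Arrdc4 (-1.02). The interaction term was called for 9 of 39, 4 higher and 5 lower (10.3% and 12.8%), against 11.9% and 12.9% of all genes, with the largest positive differences in Scd2 (2.22), Fads2 (1.58) and Acss2 (0.98), and the largest negative ones in Prkag2 (-0.94), Khk, fructokinase (-0.82), and Prkaa1 (-0.66).

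Set side by side, Acly was at 0.50 in FI3OE and 0.37 in FI3KO, each against its own WT, and Thrsp at 0.46 and 0.71, Me1 at 0.34 and 0.32, and Elovl6 at 0.32 and 0.38. Fasn was at 0.28 and 0.29, Acaca at 0.05 and 0.95, Elovl5 at 0.41 and -0.11, Mlxipl at -0.38 and -0.25, Acacb at -0.24 and 1.46, and Srebf1 at -0.15 and 0.19. Acaca in FI3OE and Acly, Fasn and Elovl5 in FI3KO did not pass the test of their own comparison. The calls of Elovl5 in FI3OE and of Acaca, Acacb and Thrsp in FI3KO held in all alternatives run, while each of the other calls was lost in at least 1. The experiments differ in depot, diet, RNA source and genotype, share no library, and the difference between their effects was not tested.

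The level of each gene in the WT groups was compared in TPM, the deposited transcript abundance scaled for transcript length and summed per gene. In WT TRAP, Fasn led at 2044 ± 416 TPM (SD, n = 6), followed by Thrsp at 941 ± 41.7, Me1 at 492 ± 39.4, Srebf1 at 411 ± 48.9, Acly at 210 ± 48.8 and Acaca at 178 ± 12.6 TPM. Elovl5 stood at 63.0 ± 8.56, Mlxipl at 42.5 ± 4.21, Acacb at 36.9 ± 12.2 and Elovl6 at 19.6 ± 2.07 TPM. The ranges overlapped between the neighbours Me1 and Srebf1, Acly and Acaca, and Mlxipl and Acacb, and not between the other neighbours.

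In WT SVF-derived adipocytes Fasn also led, at 1680 ± 115 TPM (SD, n = 3). Srebf1 came next at 684 ± 22.4, then Me1 at 498 ± 6.61, Acly at 367 ± 24.2, Acaca at 325 ± 23.2 and Thrsp at 215 ± 38.0 TPM. Mlxipl was at 81.5 ± 15.9, Elovl5 at 76.4 ± 4.96, Acacb at 71.2 ± 5.47 and Elovl6 at 23.0 ± 0.993 TPM. Acly and Acaca, Mlxipl and Elovl5, and Elovl5 and Acacb overlapped. Thrsp was thus second in eWAT adipocytes and sixth in culture.

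Between the WT groups, in a fit over 16454 genes, 5 of the 10 genes were higher in TRAP and 4 lower, against 38.1% and 42.1% of all genes by edgeR. Thrsp was 5.52-fold higher on eWAT adipocyte ribosomes, a log2 fold change of 2.47 (SE 0.11, edgeR adjusted p = 9.37e-09), and in every alternative run it was at 2.00 or above. It was the 1 gene of the 10 called past 2-fold, against 17.4% of all genes upward and 29.5% downward. Fasn (0.68) and Me1 (0.54) were also higher. Mlxipl (-0.59), Acaca (-0.46), Acly (-0.39) and Srebf1 (-0.33) were lower, and Acacb was at -0.29 with an interval from -0.72 to 0.15 (edgeR adjusted p = 0.250). Scaling by library size alone, an alternative added after seeing the data, moved the median of all genes from -0.07 to -0.53, and Elovl5 and Elovl6 went from 0.28 and 0.32 with TMM to -0.17 and -0.14, so no direction is given for them. On that scale Fasn (0.22, edgeR adjusted p = 0.240) and Me1 (0.08, edgeR adjusted p = 0.303) no longer passed, and Acacb did (-0.75, edgeR adjusted p = 0.00576). Acly fell short in 7 of 15 alternatives, among them those without WT TRAP replicate 3 or without any WT SVF replicate, at edgeR adjusted p of 0.0533 to 0.11. In the same fit the 7 adipocyte markers were all called higher in TRAP. Lep was at 9.68, Cidec at 4.15, Lipe at 2.30, Plin1 at 2.18, Adipoq at 2.02, Fabp4 at 1.86 and Pnpla2 at 0.67 (log2). The fibroblast markers summed to 600 to 1545 CPM in WT TRAP and 7304 to 7630 CPM in WT cultures. The part of cell content in the lipogenic differences was not tested. Depot, diet, culture, virus, genotype and TRAP all differ between these groups and cannot be told apart, and the labels name no library batch.

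**Figure D5:**
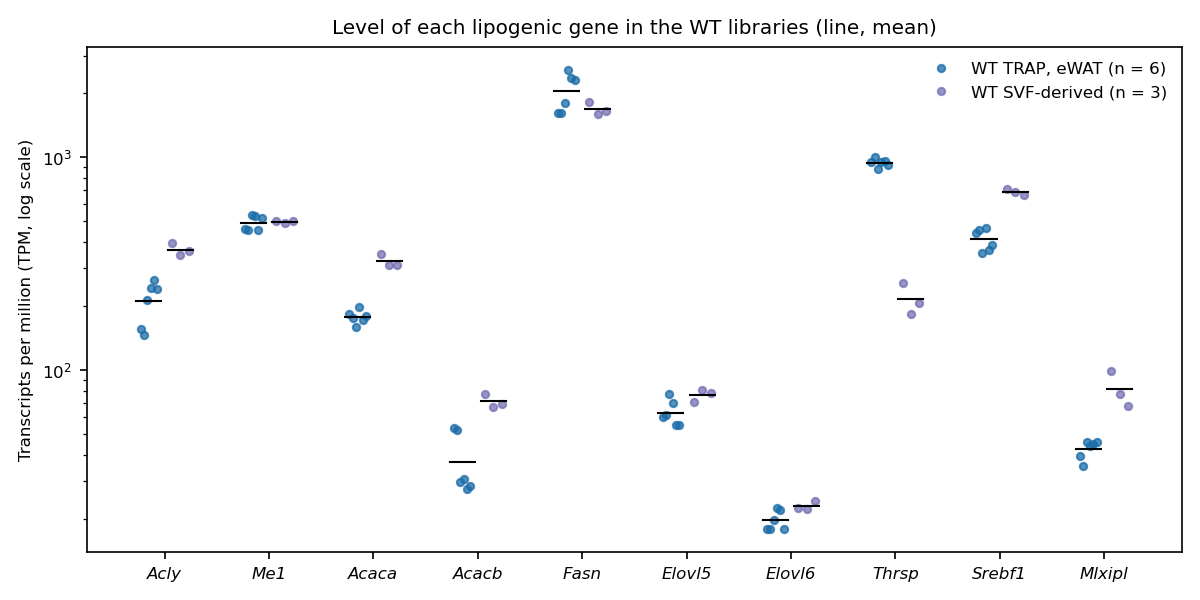
TPM (log axis) of the 10 lipogenic genes in the 6 WT TRAP libraries and the 3 WT SVF-derived libraries; each point is 1 library and each line a mean. Fasn is highest in both at 2044 and 1680 TPM, and Thrsp is at 941 TPM in TRAP and 215 TPM in culture.

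Of the other genes of the pathway, 21 of 39 were higher in WT TRAP (53.8%) and 9 lower (23.1%), against 38.1% and 42.1% of all genes. These counts rest on TMM. With library size alone, calls over all genes went from 6266 higher and 6929 lower to 3870 and 9452. The largest rises were in Fads3 (log2 fold change 2.66), Hacd2 (2.15) of the elongation cycle and Mdh1, cytosolic malate dehydrogenase (2.82-fold), and the largest falls in Elovl3 (-5.54), Fads2 (-4.31) and Scd3 (-3.48). The group for supply of substrate and NADPH had 6 of 8 higher and 0 lower.

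Transcript models were described for Acacb, Srebf1 and Mlxipl, which differ in their starts. Me1 has 2 RefSeq starts as well and is not described by model. Of Acacb, the model that starts upstream (start at 114146535) took 57.8% of the gene's TPM on average in WT TRAP and 62.1% in FI3KO TRAP. It took 35.4% in WT and 36.8% in FI3OE SVF-derived adipocytes. The shorter model (start at 114165518), whose promoter is the one printed, took 29.8% and 30.1% in TRAP. Both models were higher in FI3KO, with the longer at 41.2 to 88.1 TPM against 15.1 to 27.4 TPM in WT, and the shorter at 18.3 to 41.8 against 7.22 to 18.7 TPM. Only the latter overlapped, at its edge.

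Srebf1 makes SREBP1a from an upstream start and SREBP1c from a downstream one. The model from the downstream start (start at 60210465 on the minus strand) exceeded the upstream one in every group, with 52.1% of the gene's TPM in WT TRAP, 42.4% in FI3KO TRAP, 53.5% in WT and 52.3% in FI3OE SVF-derived adipocytes. In FI3KO it ran from 105 TPM in replicate 1 to 245 TPM in replicate 5, wider than the 167 to 229 TPM of WT. The upstream model (start at 60220604) took 15.0% and 17.3% in WT and FI3KO TRAP. A further coding model that starts inside the gene (start at 60207188) took more than the upstream one there, 20.5% and 23.8%, and 9.95% in WT and 8.99% in FI3OE SVF-derived adipocytes. In the cultures, the downstream model was 282 to 307 TPM in FI3OE and 355 to 374 TPM in WT, without overlap, while the upstream model was 125 to 130 and 121 to 145 TPM, which overlapped. The model of Mlxipl that starts at its upstream exon (start at 135089890) had at most 4.26 estimated reads in any library, a level at which no difference was detectable. Shares of transcripts that differ by few exons rest on Salmon's split of shared reads and carry no test here.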

How the data were processed

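Messenger RNA of 18 mouse libraries was analysed. Per the labels and the study's methods, reads were trimmed with fastp and quantified with Salmon 1.4.0 against GENCODE M24 (GRCm38) with sequence and GC bias correction. The authors deposited for each library and transcript the estimated counts (expected counts, not normalized), TPM and effective length. Transcripts were matched by identifier to GENCODE M21 (117850 of 118733), and estimated counts were summed per gene and rounded. TPM was summed per gene for levels, and length served an offset. Depth was 21541334 to 40490283 reads per library, and each of the 10 genes had at least 556 in every library.

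Each comparison was fitted over all genes in R 4.3.3 with edgeR 4.0.16 (filterByExpr, TMM, quasi-likelihood test, Benjamini-Hochberg), without covariates and on the libraries of its own groups. The 95% intervals are the log2 fold change with a normal multiple of its SE on either side. SE is the size of the change over the root of F. With few libraries these intervals are too narrow, and calls rest on the test alone. Calls required an adjusted p of at most 0.05, and 2-fold means a log2 fold change of at least 1. CPM carry TMM factors set within each experiment, including where WT groups of both are given. DESeq2 1.42.0 served as an alternative. Replicates are labelled biological, and nothing says which animals or cultures they came from.

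The 10 genes and all lists were chosen with earlier results of these data known. All 10 are described in each comparison, and of the 41 other pathway genes the 3 largest rises and falls among those called. Whether equal replicate numbers pair the libraries was checked by correlating deviations from the group means, and no pairing was seen. With few libraries a group, the check cannot decide it.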

Additional observations from a re-analysis of the deposited data

Results flagged for a closer look

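For 3 of the 10 genes the effect of FI3KO in TRAP differed between replicates 1-2 and replicates 3-6 by an interaction term in edgeR, 1 higher and 2 lower, against 11.9% and 12.9% of all genes. The calls of Acacb, Me1 and Srebf1 were lost in 10, 10 and 5 of 16 alternatives. Acacb had a difference of -1.01 (log2, replicates 1-2 minus 3-6), from 0.86 in the former and 1.84 in the latter, with all 6 FI3KO libraries above all 6 WT libraries. WT differed between the sets too, at 153 to 154 CPM and 81.5 to 94.8 CPM. Me1 had a difference of 0.46, from 0.65 and 0.15, with FI3KO at 1102 to 1145 CPM in replicates 1-2 and 766 to 1013 CPM in replicates 3-6. Srebf1 had a difference of -0.34, from -0.00 and 0.30, with FI3KO at 477 to 484 CPM and 508 to 571 CPM. The labels do not say what sets these replicates apart, and markers of other cells moved with them. The macrophage marker sums were 37.1 to 37.5 CPM in WT replicates 1-2 and 67.6 to 89.8 CPM in 3-6, against 34.8 to 44.0 CPM and 13.0 to 16.4 CPM in FI3KO. The same term was called for all 9 macrophage markers, Col1a1, Pdgfra, Cd34, Pecam1, Krt19 and Lep, and in the other direction for Adipoq and Plin1. The part of these markers was not tested.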

How the results depend on the processing

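Alternatives changed the tool, the scaling, the filter on low counts, the length offset, the dispersion or the libraries, and causes of the changes were not tested. Of the 10 genes in each comparison, the calls and directions were kept in 149 of 160 cases in the SVF cultures, 227 of 250 in TRAP, 80 of 90 in replicates 1-2, 137 of 140 in replicates 3-6, 125 of 160 for the difference between the sets and 136 of 150 between the WT groups. In the SVF cultures the fit of all 18 libraries called 2 higher and 1 lower, and robust dispersion called 1 lower. In TRAP the summed libraries, added after seeing the data, left 3 higher, and the replicate block left 0 lower. Deviations from the group means showed no pairing by equal replicate numbers (correlations from -0.34 to 0.10), a check that cannot decide it. Me1, Srebf1 and Mlxipl missed the threshold at edgeR adjusted p = 0.0803, 0.0927 and 0.0655 under the block.

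Leaving out 1 library gave 1 to 2 genes lower and 1 to 2 past 2-fold in TRAP, and 1 to 2 past 2-fold in replicates 3-6. For the difference between the sets it gave 0 to 1 higher and 0 to 2 lower, and fitting with no filter gave 0 higher. In replicates 1-2, leaving out 1 library leaves a group of 1, which cannot decide a call. Directions turned for Mlxipl in replicates 1-2 (-0.080 to 0.0065, log2) and for Fasn in replicates 3-6 (-0.057 to 0.37). For the difference between the sets they turned for Elovl5 (-0.10 to 0.011), Elovl6 (-0.039 to 0.22) and Thrsp (-0.083 to 0.12, and -0.033 with no filter). Between the WT groups the length offset left 3 higher and library size alone 1, with Elovl5 at -0.17 and Elovl6 at -0.14.

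Single transcripts of Mlxipl were left unresolved, and the part of depth in this was not tested. With 2 libraries a group in replicates 1-2, and alike libraries among the others, the spread rests on few samples.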
